A study of Mus musculus with 8 samples.

Results

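Sox4, Tet2, Msi2, Nt5e and Cd52 are 5 genes known from work on leukemia with CEBPA mutations, and their chromatin loops are described here in H3K27ac HiChIP of HPC-7 cells, a mouse hematopoietic progenitor line. They are 5 of 21751 protein-coding genes and were taken by name. A loop belongs to a gene when 1 of its 2 bins of 5 kb holds the start site of the gene's canonical transcript, and it is called a promoter loop below. Of 214313 distinct loops in the 4 lists, 34 were promoter loops of these genes.

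The compared cells were HPC-7_p30 cells and HPC-7_p42 cells, each either untreated (UT) or given LPS, the bacterial activator of TLR4, for 2 h at 100 ng/mL. p42 is full-length CEBPA, and p30 is the shorter isoform that lacks the N-terminal part and remains in leukemia with N-terminal CEBPA mutations. All groups were grown with SCF, started from a line with little CEBPA of its own, and carried a retroviral transgene with GFP, so the isoform came from the vector and not from the endogenous locus. The study made such lines as ERT2 fusions, which enter the nucleus on 4-OHT, and as Flag-tagged constitutive versions. The sample labels do not say which of them went into HiChIP. In its methods the names p30 HPC-7 and p42 HPC-7 stand for the fusion lines, and its legend on HiChIP loops names p42 HPC-7. Each group had 2 replicates, deposited as 1 list, so that 8 libraries gave 4 lists and no spread between replicates can be measured. Every p-value below therefore compares libraries by counting error alone, not conditions.

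H3K27ac marks active promoters and enhancers, and HiChIP enriches pairs of ligated DNA fragments in which a fragment carries the mark. A promoter loop in these lists is thus a contact between a promoter and another stretch, seen more often than distance and coverage predict, and it can come from more contact or from more acetylation. Of the genes, Sox4 encodes a SOXC transcription factor, Tet2 an enzyme that oxidizes methylated cytosine in DNA, and Msi2 an RNA-binding protein of stem cells. Nt5e encodes CD73, the surface enzyme that turns AMP into adenosine, and Cd52 a small GPI-anchored surface antigen of leukocytes.

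Wherever 4 values stand side by side without labels, they follow the order untreated p30, LPS-treated p30, untreated p42, LPS-treated p42. In this order the lists had 80489, 94609, 158233 and 78591 loops, from 14503330 to 18999991 modelled contacts per list. The list of p42 UT was the longest and the one with the most contacts, so counts of loops are given below also in lists limited to the 78591 loops with the smallest q-values. For loops in both lists of a comparison, the median contact ratio lay 0.20 (log2) above the ratio of modelled contacts for p42 against p30 in UT, 0.13 below it for p42 against p30 in LPS, 0.22 above it for LPS in p30 and 0.13 below it for LPS in p42. All 10 hematopoietic progenitor markers, among them Kit, Cd34 and Runx1, had promoter loops in each list, while 1 or 2 of 5 lymphoid genes and 0 to 2 of 6 non-hematopoietic genes did.

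Cd52 and Tet2 carried the loops on which the comparisons rest, and the sequences of their promoters and of motifs in their main partner bins are printed first, from GRCm39, the assembly behind mm39. The first pair are stretches upstream of the start site without annotated exons, read on the strand of the gene, with every CpG in capitals. Tet2 has a promoter richer in CpG, with 17 in the 250 bases before the start site, more than in 77.4% of all promoters. Cd52 has 3 there, more than in 24.2%, and the median promoter has 8. The stretch of Tet2 lies at chr3:133250939-133251011, from 250 to 178 bases before the start site, and that of Cd52 at chr4:133822402-133822651, directly before it.
Tet2 promoter: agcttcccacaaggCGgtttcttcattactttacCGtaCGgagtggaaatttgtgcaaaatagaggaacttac
Cd52 promoter: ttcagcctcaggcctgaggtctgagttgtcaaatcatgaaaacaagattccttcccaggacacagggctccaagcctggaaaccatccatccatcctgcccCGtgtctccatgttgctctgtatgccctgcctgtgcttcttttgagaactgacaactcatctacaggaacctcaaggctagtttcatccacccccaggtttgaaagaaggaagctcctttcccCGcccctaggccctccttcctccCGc

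Motifs were searched on both strands as exact letters: ATTGCNNAA for C/EBP, TGANTCA for AP-1 and TGATGCAAT for the composite of C/EBP and ATF4, whose reverse complement opens with the same ATTGC as the first. None of the promoters of the 5 genes held any of them in the 250 bases before the start site, where 1.91%, 6.17% and 0.216% of all promoters hold these letters. The C/EBP letters were in the start-site bins of Sox4, Tet2 and Msi2 and in 10 of 34 partner bins, against 34% of 64985 peak bins of 5 kb. They were in 4 of 9 partner bins of Tet2, 5 of 12 of Msi2, 1 of 11 of Cd52 and 0 of 2 of Sox4. AP-1 letters were in 28 of 34 partner bins, against 77.4% of peak bins, and the composite in 2, against 2.74%. The matches below show what the start-site bin of Tet2 and its most frequent partner held, beside the strongest partner of Cd52, with the motif in capitals. They lie, in the order printed, at chr3:133251857-133251885 (plus strand), chr3:133288298-133288326 (plus), chr3:133289142-133289170 (minus) and chr3:133286988-133287014 (plus), all in introns of the lncRNA gene Gm42567, and at chr4:133847957-133847983 and chr4:133849897-133849923 (both plus) in an intron of Ubxn11. Those of AP-1 read alike on both strands apart from the middle letter.
Tet2 start-site bin, C/EBP: tgcagagaagATTGCCTAAagtaagttct
Tet2 35 kb upstream, composite: agcataaactTGATGCAATagtaaatgat
Tet2 35 kb upstream, C/EBP: tatactaattATTGCTGAAttctgcaaat
Tet2 35 kb upstream, AP-1: tctatgggacTGACTCAcaatgggaca
Cd52 25 kb upstream, AP-1: tagagctgagTGAGTCAcgtaggtcct
Cd52 25 kb upstream, AP-1: tgtttcctcaTGAATCAagtagaggtt

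Cd52 had the most promoter loops in every list, Tet2 had more in both p42 lists than in both p30 lists, and Nt5e had none. Cd52 had 6, 10, 10 and 7 loops. Tet2 had 1, 2, 7 and 5, and Msi2 had 2, 1, 9 and 2. Sox4 had 2 loops in p42 UT and 0 in the other lists. The median gene with a promoter loop had 5 in p42 UT and 3 in each of the other lists. Cd52 lay above it in each list, Tet2 in both p42 lists and Msi2 in p42 UT. A ratio of loop numbers was taken after adding 1 to each count. In UT, 4 of the 5 genes had at least 1.5 times more loops in p42 than in p30, as did 66.7% of all genes with a loop in either list. In lists of equal size that share was 27.1%, and the genes with more loops in p42 were Tet2 (4 against 1) and Cd52 (10 against 6). Msi2 then had 2 in p30 UT and 1 in p42 UT, and Sox4 had 0 throughout. With LPS, Tet2 (5 in p42 against 2 in p30) and Msi2 (2 against 1) had at least 1.5 times more in p42, where 15.6% of all genes had (22.8% in lists of equal size, with the same numbers for both). LPS gave at least 1.5 times more loops in p30 for Tet2 and Cd52, where 34.6% of all genes had more, and in lists of equal size for Tet2 alone (2 against 1), where 26.3% had. In p42 it gave at least 1.5 times more for 0 of the genes, where 3.31% had, and at least 1.5 times fewer for Sox4 and Msi2, as for 73.8% of all genes. That direction did not hold for these genes in lists of equal size, where Msi2 went from 1 loop to 2 and Tet2 from 4 to 5 with LPS in p42, Sox4 had 0 in both, and 20.2% of all genes had at least 1.5 times more. Cd52 had 10 loops in p42 UT and 7 in p42 LPS under either list size.

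**Figure D1:**
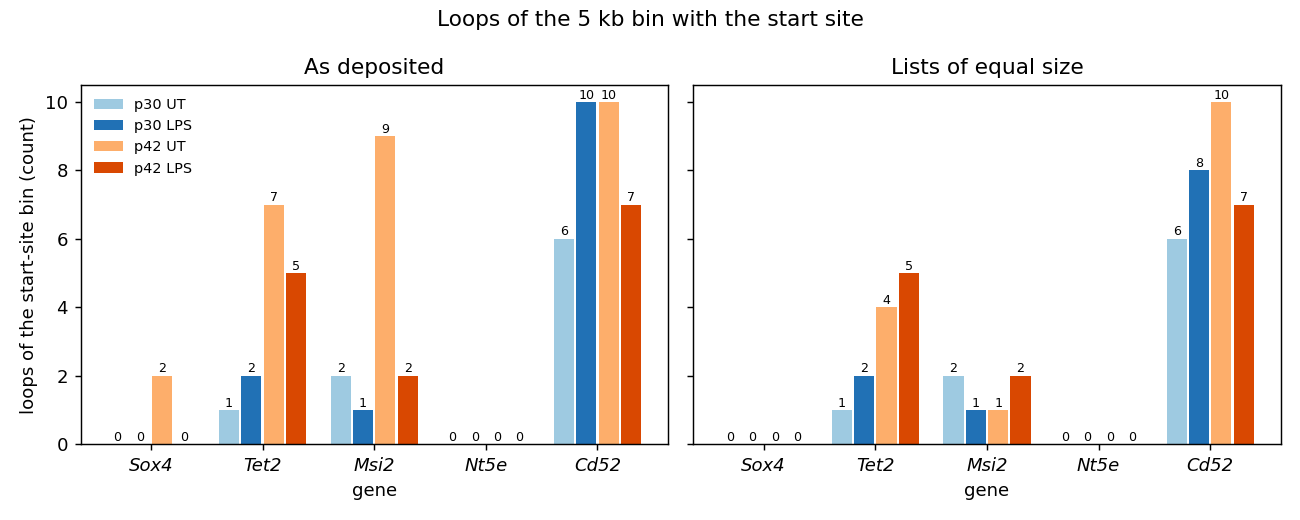
Bars give the number of loops whose 5 kb bin holds the start site of each gene, in each of the 4 lists, as deposited (left) and limited to 78591 loops each (right). Msi2 has 9 loops in p42 UT as deposited and 1 in lists of equal size, while Tet2 and Cd52 keep more loops in p42 UT than in p30 UT.

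Tet2 spans chr3:133169436-133250900 on the minus strand, and its start-site bin, chr3:133250001-133255000, also covers an exon of the lncRNA gene Gm42567. Its 9 distinct loops ran mainly upstream, to 2 neighborhoods over Gm42567 and the lncRNA gene Gm40153 at 30 to 40 kb and at 70 to 80 kb. A single further bin lay 210 kb upstream, and 2 bins lay downstream past the end of the gene, at 210 and 235 kb over Ppa2, which encodes a mitochondrial pyrophosphatase and has its start site in the bin at 235 kb. The loop to the bin 35 kb upstream, chr3:133285001-133290000, was the only one of Tet2 in all 4 lists. It had 15, 18, 41 and 40 contacts. Both p42 lists lay above both p30 lists. Over the expected count of the caller these were 5.62, 4.82, 6.91 and 6.66 times, a narrower range than that of the contacts, and the expected count itself was 2.67 in p30 UT and 5.94 in p42 UT.

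In UT the loop of Tet2 at 35 kb was higher in p42. Of its contacts in both lists, 73.2% came from p42 (Wilson 95% interval 60.4 to 83.0), where 51.4% of the modelled contacts did, which is 2.59 times more per modelled contact (two-sided exact binomial test, adjusted p = 0.0289 over 59069 loops). This call was lost with a null share of 69% from the caller's expected counts, where the log2 ratio went from 1.37 to 0.30 and the adjusted p was 1. It was also lost with a null from the median ratio of all shared loops (0.182), where the log2 ratio stayed at 1.18. In LPS the share was 69.0% (56.2 to 79.4), 2.04 times more per modelled contact (exact binomial test, adjusted p = 0.256). With the loop at 75 kb, present in both LPS lists, Tet2 had 34 contacts in p30 and 63 in p42, 1.70 times more per modelled contact (exact binomial test, adjusted p = 0.0833 over 6081 genes). With the bins on either side of the start-site bin added, the log2 ratio of its summed contacts was smaller. It went from 1.37 to 0.80 in UT (exact binomial test, adjusted p = 0.000785) and from 0.76 to 0.32 in LPS (0.255).

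The bins at 75 and 80 kb, chr3:133325001-133330000 and chr3:133330001-133335000, are adjacent and were seen in both p42 lists. At 75 kb the loop had 16 contacts in p30 LPS and 25 and 23 in the p42 lists. In p30 UT it was not listed, although both bins were, and the caller's own threshold then leaves at most 9 contacts, so p42 UT had at least 2.63 times and p30 LPS at least 2.20 times more per modelled contact than p30 UT. At 80 kb the p42 lists had 24 contacts (UT) and 18 (LPS), against at most 9 in p30 LPS, so p42 LPS had at least 1.83 times more than p30 LPS per modelled contact. The limit for p30 UT at 80 kb is unknown, because that bin was in no loop of the list. The remaining loops of Tet2 were each in 1 list, those at 30 and 70 kb in p42 LPS with 19 and 16 contacts, and those at 40, 210 and 235 kb in p42 UT with 8 to 19 contacts. No loop of Tet2 was listed in p30 alone.

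Cd52 lies at chr4:133809759-133822401 on the minus strand, with its start site in chr4:133820001-133825000. Its loops formed a nearly unbroken run from 10 to 40 kb upstream, over Ubxn11 (a UBX domain protein), Sh3bgrl3 (a small thioredoxin-like protein) and Cep85 (a centrosomal protein), and then reached 80, 90 and 195 kb. The bins at 35 and 90 kb hold the start sites of Sh3bgrl3 and Cep85, and a single bin 10 kb downstream lies over Crybg2 and the end of Cd52. The 5 loops at 15 to 35 kb were in all 4 lists. The strongest ran to an intron of Ubxn11, chr4:133845001-133850000, 25 kb upstream, and had 189, 195, 313 and 226 contacts. This was 11.2, 14.5, 15.9 and 14.9 times the expected count, above 99.7% to 99.9% of loops of the same distance in each list. p30 UT was the lowest list on both scales and p42 UT the highest.

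In UT, contacts of Cd52 were higher in p42. Its 6 loops in both lists had 650 contacts in p30 UT and 1048 in p42 UT. The share from p42 was 61.7% (59.4 to 64.0), or 1.53 times more per modelled contact (exact binomial test, adjusted p = 1.67e-15 over 7002 genes). In the same exact test the result held with the null from expected counts (adjusted p = 1.05e-08), by which 9.14% of all genes passed, and with that from the median ratio (6.15e-07), by which 8.43% did. With modelled contacts, 2 of the 3 genes tested were past the threshold in UT, Cd52 and Tet2 (2.59 times more per modelled contact, exact binomial test, adjusted p = 0.00784), where 22.3% of all genes were. That of Tet2 rests on its single loop at 35 kb and was lost with expected counts (exact binomial test, adjusted p = 0.887) and with the median ratio (0.0691). By single loop, those of Cd52 at 10, 15, 20 and 25 kb and that of Tet2 at 35 kb passed, 5 of 8, where 5.09% of all loops did. The Cd52 loops at 10, 15 and 20 kb did not pass with expected counts (exact binomial test, adjusted p = 0.136, 0.209 and 0.110) or with the median ratio (0.0612, 0.458 and 0.237). Over expected counts their log2 ratios were 0.56, 0.50 and 0.61, beside 0.76, 0.56 and 0.66 per modelled contact. The Cd52 loop at 25 kb was 1.57 times higher per modelled contact (exact binomial test, adjusted p = 9.92e-05) and passed also with the expected counts (0.0359) and the median ratio (0.0389).

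After LPS the lists of p30 and p42 had like numbers of Cd52 contacts over the 7 loops in both, 629 and 618. The share from p42 was 49.6% (46.8 to 52.3), where 52.2% of modelled contacts were (exact binomial test, adjusted p = 0.238). The interval reaches just past the share of modelled contacts. With the bins on either side of the start-site bin added, p42 was lower by 0.27 on the log2 scale (adjusted p = 1.06e-05, exact binomial test). The single loops went both ways: the p30 list had more contacts at 20 kb (136 against 99, exact binomial test, adjusted p = 0.0927) and the p42 list more at 25 kb (195 against 226, adjusted p = 1). At 10 kb the p30 list had 131 contacts, while the loop was not listed in p42 and had at most 85 there. The loops 10 kb downstream and 90 kb upstream were also listed in p30 alone. They had 75 and 11 contacts, against at most 64 and 10 in p42. All 7 Cd52 loops of the p42 list were in both. No promoter loop of the 5 genes, of 9 in both LPS lists, passed the exact binomial test, where 1.59% of all loops did, and 0 of 2 genes did, where 14.5% of all genes did. The unadjusted p, by the same exact test, was 0.0143 for Tet2 and 0.0654 for Cd52.

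**Figure D2:**
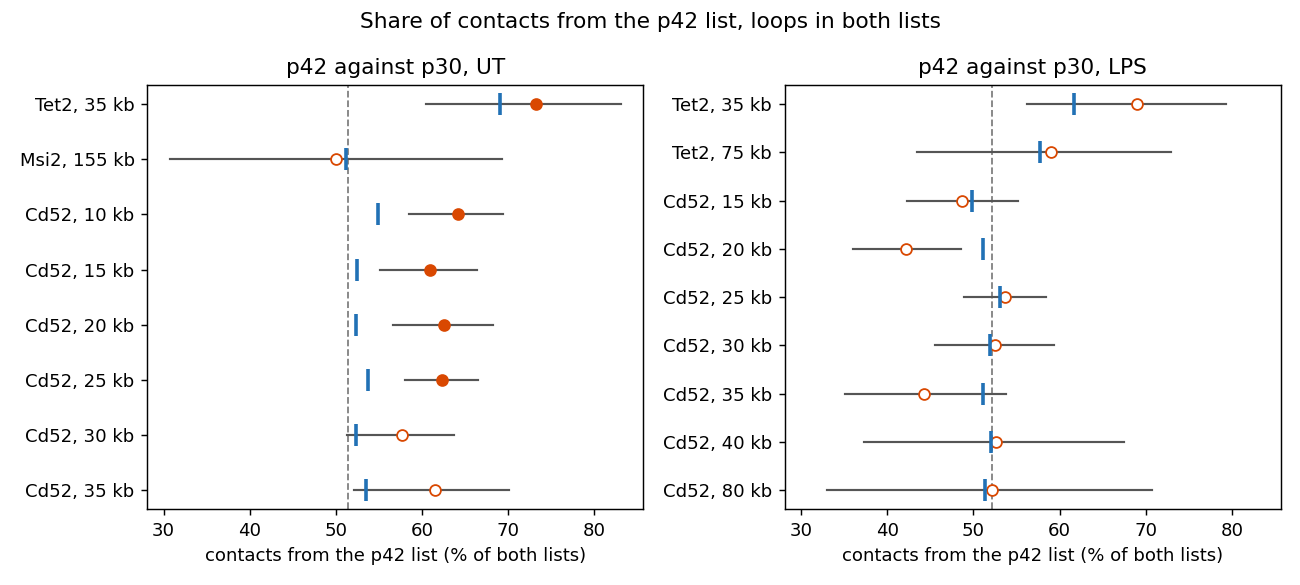
Points give the percent of the contacts of a loop in both lists that came from p42, in UT (left) and LPS (right), with Wilson 95% intervals; filled points passed the exact binomial test at an adjusted p of 0.05. The dashed line is the p42 share of modelled contacts and the blue tick its share of the caller's expected counts; in UT the 6 loops of Cd52 and that of Tet2 lie right of the line, and those of Cd52 at 10 to 25 kb and of Tet2 are filled.

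With LPS, summed contacts of Cd52 loops in both lists rose in p30, and in p42 they fell against modelled contacts alone. In p30 its 6 shared loops went from 650 contacts in UT to 731 with LPS, 1.39 times more per modelled contact (exact binomial test, adjusted p = 5.97e-08 over 6276 genes), with an adjusted p of 0.00137 with expected counts (3.43% of all genes passed) and 0.0263 with the median ratio (3.62%). By single loop, those at 10 kb (105 and 131 contacts) and 20 kb (98 and 136) passed, 2 of 7 promoter loops, where 2.2% of all loops did. Both loop calls were lost with expected counts (exact binomial test, adjusted p = 1 at 10 kb and 0.0510 at 20 kb) and with the median ratio (0.692 and 0.241), while the log2 ratio over expected counts was 0.31 at 10 kb and 0.80 at 20 kb, beside 0.63 and 0.78 per modelled contact. Cd52 was the 1 gene of 2 past the test of summed contacts, where 16.1% of all genes were. In p42, 6 loops had 883 contacts in UT and 606 with LPS, 0.824 times per modelled contact (exact binomial test, adjusted p = 0.00306 over 6774 genes). This was lost with expected counts (0.325, where 5.24% of all genes passed) and with the median ratio (0.326, 6.35%). Cd52 was the 1 gene of 3 past the test there, where 17% of all genes were, and 0 of 10 loops passed, where 1.47% of all loops did. Cd52 loops listed in only 1 p42 list were outside this sum. At 10 kb p42 UT had 188 contacts and p42 LPS at most 85, where the caller expected 74.5 and 55.3. That is at least 1.84 times more in UT per modelled contact. The loops 10 kb downstream (at least 1.42 times), at 90 kb (1.42) and at 195 kb (1.25) also had more in UT. That at 80 kb had at least 1.31 times more with LPS. Tet2 had 15 and 18 contacts in p30 over 1 loop (adjusted p = 0.578) and 90 and 81 in p42 over 3 loops (0.890, exact binomial tests).

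The difference between these LPS effects was tested on loops in all 4 lists. The 5 loops of Cd52 had 545, 600, 860 and 586 contacts. Per modelled contact the change was 0.45 in p30 and -0.29 in p42 on the log2 scale, a difference of -0.74 (exact conditional test, adjusted p = 6.84e-09 over 5040 genes). Of all genes 36.8% passed this test, and the median over the 31032 loops in all 4 lists was -0.50. Against that median the difference of Cd52 was -0.24 (exact conditional test, adjusted p = 0.398), and against expected counts -0.60 (1.29e-05). The 1 loop of Tet2 gave -0.35 (exact conditional test, adjusted p = 0.798).

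**Figure D3:**
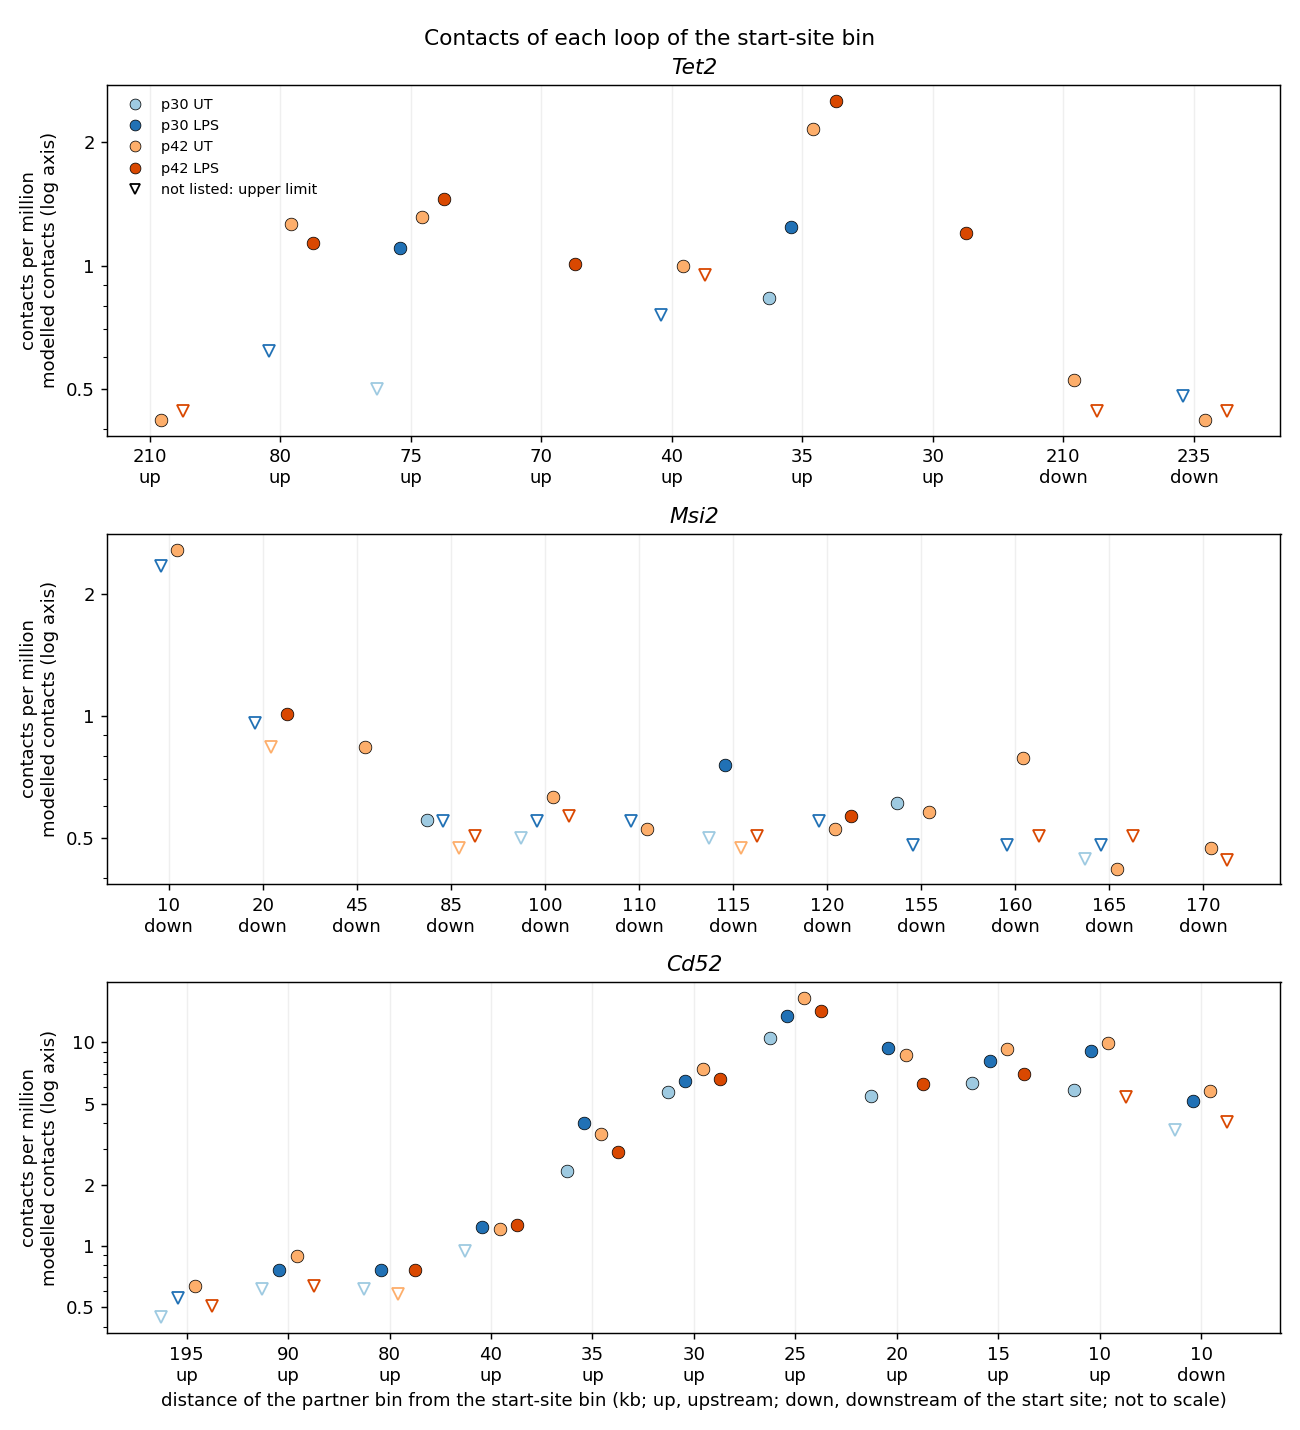
Filled points give contacts scaled to the modelled contacts of each list (log axis) of each promoter loop of Tet2, Msi2 and Cd52 in the 4 lists, ordered by distance of the partner bin from the start-site bin in kb; open triangles are upper limits for pairs not listed whose bins are both in the list, and pairs without a symbol have no limit. The p42 lists lie above both p30 lists at the Tet2 partner 35 kb upstream, and Cd52 peaks at 25 kb.

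H3K27ac coverage of the start-site bin of Tet2 was higher in p42 than in p30 under both treatments. Against the mean of peak bins, Tet2 stood at 0.655, 0.990, 1.55 and 1.83, from 1575, 2218, 4523 and 3544 reads. Both p42 lists lay above both p30 lists, as with its contacts. The bin was 2.37 times higher in p42 than in p30 in UT, above 99.9% of 6645 start-site peak bins, and 1.85 times in LPS, above 99.5% of 6011. Scaled to modelled contacts these differences were 1.44 and 0.55 (log2), and scaled to the median start-site bin 1.14 and 0.99. With LPS it was 1.51 times higher in p30, above 98.2% of 6231, and 1.18 times in p42. Scaled to modelled contacts the value for p42 turned to -0.09 on the log2 scale. Among all such bins, 3.84%, 1.75%, 1.97% and 0.699% were at least 1.5 times higher in these comparisons, in that order. The start site, chr3:133250761, lies near the downstream edge of its bin. The next bin downstream had 3089, 3844, 5642 and 3721 reads, fewer in p42 LPS than in p30 LPS. The mean of peak bins was 1939 reads in p42 LPS and 2239 in p30 LPS. The next bin upstream was seen in the p42 lists alone, with 2533 (UT) and 2217 (LPS) reads. All of these are single values per group, with no test.

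The main partner bins of Tet2 were also lowest in p30 UT. The bin at 35 kb stood at 0.803, 2.17, 2.39 and 3.20 times the mean of peak bins, and that at 75 kb at 1.37, 1.86, 2.81 and 2.78. How far this coverage bears on the contacts was not tested beyond the expected-count null above. Msi2, with 1.13, 1.12, 1.22 and 1.11 at its start-site bin, differed by less than 0.14 (log2) in each comparison on this scale, and by up to -0.46 (LPS in p42) when scaled to modelled contacts. Cd52 stood at 3.47, 4.44, 4.14 and 3.56, above 95.1% to 96.9% of start-site peak bins, 1.28 times higher with LPS in p30 and 0.861 times in p42. Its difference between p42 and p30 was 0.26 (log2) in UT and -0.32 in LPS, and the latter was -0.65 when scaled to modelled contacts and -0.21 when scaled to the median start-site bin. Its partner at 25 kb was higher still, at 5.61, 5.49, 6.20 and 5.52. Sox4 was in p42 UT alone, at 0.549, and the start-site bin of Nt5e in no list.

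**Figure D4:**
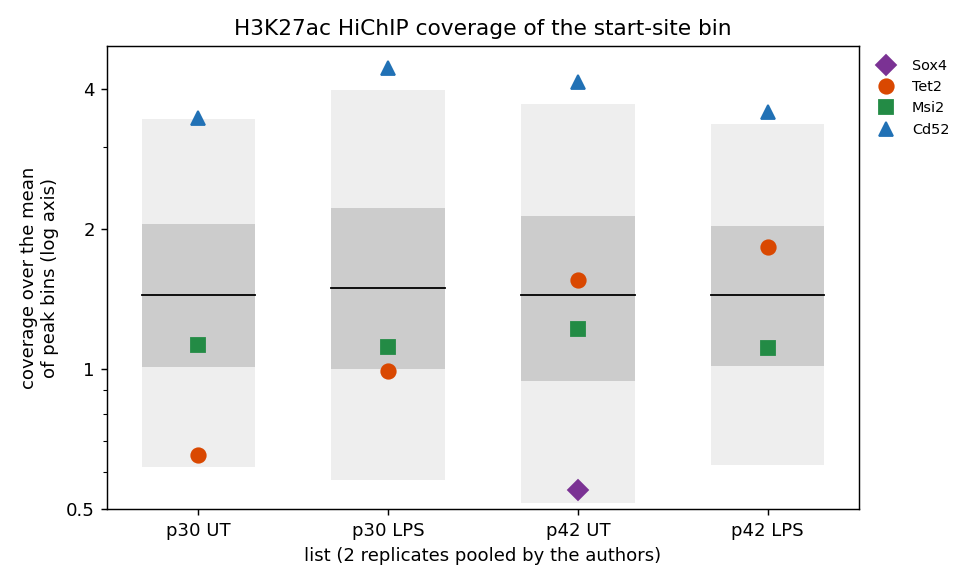
Points give the coverage of the start-site bin of each gene over the mean of peak bins (log axis) in the 4 lists; light bars span the 5th to 95th percentile of all start-site peak bins, dark bars the 25th to 75th, and lines the median. Tet2 goes from 0.655 in p30 UT to 1.83 in p42 LPS, Cd52 lies above the light bar throughout, and Nt5e has no point.

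Msi2 is a long gene, chr11:88230208-88609339 on the minus strand, and all 12 partners of its start-site bin, chr11:88605001-88610000, lay in its own introns, 10 to 170 kb downstream. By list there were 2, 1, 9 and 2 of them, and none was in all lists. The loop at 155 kb had 11 contacts in both p30 UT and p42 UT, and p42 had a share of 50.0% (30.7 to 69.3, exact binomial test, adjusted p = 1). The loop at 160 kb, in p42 UT with 15 contacts, was the farthest above expectation, 9.30 times, and had at most 7 contacts in the p30 LPS list and 8 in that of p42 LPS, so that p42 UT had at least 1.56 times more than p42 LPS per modelled contact. The loop at 120 kb had 10 contacts in untreated p42 and 9 after LPS. The loop at 115 kb was in p30 LPS alone with 11 contacts. Most Msi2 loops of p42 UT, 8 of 9, are not among its 78591 loops with the smallest q-values, which end at a q-value of 6.98e-05. Of the 9, 4 had a q-value under 0.001. Within the gene there were 12, 18, 56 and 15 loops with a bin over it, and 11, 9, 11 and 15 in lists of equal size. At least 1.5 times more such loops in p42 were seen for 69.8% of all genes in UT and 15.3% in LPS. In lists of equal size these shares were 21.7% and 23.8%.

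Sox4, at chr13:29132902-29137696 on the minus strand, had 2 promoter loops, both in p42 UT and both downstream over the lncRNA gene 2610307P16Rik, at 115 kb with 9 contacts (5.15 times expected) and at 195 kb with 8 (5.64 times). Both had no more contacts than listing required. The bin next to it, 5 kb further upstream, chr13:29140001-29145000, was in all lists and reached much farther. These loops, looked at after the promoter loops were seen, ran to Cdkal1, the large neighboring gene of a tRNA-modifying enzyme. One of 880 kb to chr13:30020001-30025000 had 15 contacts in p30 UT (14.5 times expected) and 9 in p42 UT (8.88 times). One of 645 kb to chr13:29785001-29790000 had 11 in p30 UT and 7 in either p42 list. In p30 LPS the bin had 2 other loops, of 810 and 875 kb, with 8 and 7 contacts. In UT neither of the loops in both lists passed the exact binomial test, with an adjusted p of 0.726 at 880 kb and 0.867 at 645 kb.

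Nt5e, at chr9:88209089-88254146 on the plus strand, had no promoter loop in any list, and the nearest listed bin lay 30, 25, 5 and 15 kb from its start-site bin. Loops over the body of the gene were not lacking. There were 4, 4, 47 and 17, and 13, 8, 105 and 43 within 100 kb. In lists of equal size, counted after the deposited lists had been seen, there were 4, 2, 27 and 17 over the gene and 13, 6, 54 and 43 within 100 kb. At least 1.5 times more loops within 100 kb in p42 were seen for 74% of all genes in UT and 11.6% in LPS as deposited, and for 14.6% and 19.2% in lists of equal size. For loops over the gene these shares were 69.8% and 15.3% as deposited, and 21.7% and 23.8% in lists of equal size. The most significant ones, chosen after their values were seen, joined the 3' part of Nt5e with stretches upstream of the gene. The loop of 85 kb between the bin 35 kb into the gene and chr9:88155001-88160000, where no gene is annotated, had 31 contacts in untreated p42 (10.9 times expected) and 14 after LPS (5.98 times) and was in neither p30 list. The loop of 75 kb to the same bin had 28 and 12. The loop of 115 kb to chr9:88120001-88125000, over the lncRNA gene Gm69309, had 19 contacts in p42 UT and at most 7 in p30 UT and 8 in p42 LPS. Around Nt5e the p42 lists held more loops than the p30 lists under both treatments and both list sizes, without one at its start site, and this was not tested.

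Genes of the same pathways were read from lists of 51 other genes: SOXC factors, DNA demethylation, RNA regulators around Musashi, the extracellular purine pathway, small GPI-anchored antigens, and genes mutated beside CEBPA in acute myeloid leukemia. In UT, 27 of them had loops in both lists, and 6 were higher in p42 and 0 lower by the exact binomial test of summed contacts, with a median of 0.25 (log2) against 0.24 over all 7002 genes. These 6 of 27 are a share near the 22.3% of all genes past the same test. By list these were 1 of 3 tested in DNA demethylation, 1 of 5 RNA regulators, 2 of 6 in the purine pathway, 2 of 5 surface antigens and 0 of 8 genes mutated in leukemia, and no SOXC gene could be tested. With expected counts 1 of the 27 was called, where 9.14% of all genes passed. The 6 were Cd14, the LPS co-receptor, Plaur, the urokinase receptor, the purine receptor gene P2rx7, the nucleoside transporter gene Slc29a1, Idh1, whose enzyme makes the cofactor of TET proteins, and Pabpc1, which binds poly(A) tails. Cd14 had 111 contacts in p30 UT and 465 in p42 UT, 3.96 times more per modelled contact (exact binomial test, adjusted p = 3.02e-45), and was the one called with expected counts (0.000835). It was also 1.73 times higher in p42 with LPS (adjusted p = 8.69e-13) and 2.09 times higher with LPS in p30 (3.31e-07), both lost with expected counts (exact binomial tests, 1 and 0.269).

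After LPS, 24 of the 51 were tested between p42 and p30, and Cd14 was higher and 3 were lower: Adora2a, an adenosine receptor gene, Cxxc5, which encodes a CpG-binding protein, and Stag2, a cohesin subunit gene. These 4 of 24 stand beside 14.5% of all genes past the test, and the median was -0.25 against -0.22 over all genes. LPS in p30 gave 4 higher of 22 (Cd14, P2rx7, Ptbp1 and Stag2), where 16.1% of all genes passed, and LPS in p42 gave 2 lower of 29 (Cxxc5 and Gata2), where 17% did. None of these was called with expected counts. Among relatives of the 5 genes, Tet3 had 406 contacts in p30 UT and 414 in p42 UT, 0.965 times per modelled contact (exact binomial test, adjusted p = 0.847), and Entpd1, which makes the AMP that Nt5e uses, had 43 and 54, 1.19 times (0.679). Sox11 and Sox12 had no promoter loops. Syncrip, an RNA-binding partner of Musashi proteins, had 2, 6, 6 and 6 loops.

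Among 6332 genes with a start-site bin in all 4 lists, the coverage pattern most like that of Tet2 was that of Hlx, a homeobox gene of hematopoiesis, with 0.779, 1.27, 1.68 and 2.12 times the mean of peak bins. The next was Hp, the haptoglobin gene, with 0.968, 1.85, 2.55 and 3.14. Their distances from Tet2 on the centered log2 scale were 0.176 and 0.243, over 4 lists. The nearest to Cd52 were Dusp11 (0.0141) and Cdkl3 (0.0309), and to Msi2 Mapk3 (0.0126) and Thap1 (0.0151).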

How the data were processed

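H3K27ac HiChIP data of 8 libraries (4 groups of 2 replicates) were used as loop lists, 1 per group. The authors aligned reads to mm39 with BWA-MEM (0.7.17), processed pairs with pairtools and called loops with FitHiChIP. How replicates were pooled is not given in the sources used here. The deposited columns hold contact counts per pair of 5 kb bins, the coverage signal of each bin, expected counts, a coverage bias ratio, the contact probability as a fraction, and p-values with q-values under 0.01. The total of modelled contacts was computed by dividing the expected count by the probability, and the caller's expected count was recomputed to bound contacts of unlisted pairs. Such a bound needs both bins in the list.

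Start sites came from GENCODE M39. Loops in both lists were tested by two-sided exact binomial tests against the share of modelled contacts, and LPS effects by an exact conditional test (scipy 1.17.1, numpy 2.4.6, pandas 2.3.3, Python 3.11.15), with Benjamini-Hochberg adjustment over all loops or genes. Wilson intervals and p-values cover counting error only, and reads without molecular identifiers are not independent molecules. Tests were checked on simulated data, where 46% to 57.5% of 200 loops changed 3-fold were recovered, by comparison. The named genes were the 5 members, up to 3 genes per related list with the most promoter loops, the 2 genes with the nearest coverage pattern per member, genes with a start site in a partner bin, and related genes past the test. The members and lists were chosen with earlier results of these data known.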

Additional observations from a re-analysis of the deposited data

Results flagged for a closer look

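The LPS effect on Cd52 contacts differed between isoforms, by -0.74 (log2, p42 minus p30, exact conditional test, adjusted p = 6.84e-09), and by -0.24 against the median of all loops (0.398). That median was -0.50, and 36.8% of all genes passed the same test.

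Changes in opposite directions in p30 and p42 were also seen in values that were not tested. The LPS change in promoter loops of Cd52 was lower in p42 than in p30 by 7 as deposited (-7) and by 5 in lists of equal size (-5). That of Tet2 was -3 as deposited but 0 in lists of equal size, where Tet2 gained 1 loop in either isoform. That of Msi2 was 2 in lists of equal size, while as deposited Msi2 had fewer loops with LPS in both isoforms (2 and 1 in p30, 9 and 2 in p42). The LPS change in coverage of the Cd52 start-site bin was -0.57 (log2) in p42 relative to p30. It was 0.36 in p30 and -0.22 in p42, against medians of 0.04 and -0.14 over all start-site peak bins. Its size depended on the scaling, with 0.56 and -0.54 when scaled to modelled contacts and 0.30 and -0.07 when scaled to the median start-site bin.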

How the results depend on the processing

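No paired analysis was possible because the replicates of each group were deposited as 1 list, and no replicate could be left out for the same reason. Of 61 alternatives to values that answer a comparison, 41 stayed within 1.5 times and 20 moved. With the null from expected counts or from the median ratio, 1 loop instead of 5 and 1 gene instead of 2 passed in UT, 0 loops instead of 2 passed for LPS in p30, and 0 genes instead of 1 passed for LPS in p42. The difference of LPS effects was called for 0 genes instead of 1 with the median ratio. With both neighboring bins added, 8 loops passed in UT, 1 loop and 1 gene in LPS, and 4 loops for LPS in p30, where loops in all 4 lists gave 1. That wider window held more loops, for Cd52 18, 24, 27 and 19 instead of 6, 10, 10 and 7. The share of all loops and genes past the test in it is not given. Its higher counts are thus no added support. In lists of equal size, 2 instead of 4 genes had more promoter loops in p42 UT than in p30 UT, and 2 instead of 0 had more with LPS in p42, where the wider window gave 1. For p42 against p30 in LPS, a q-value under 0.001, a minimum of 10 contacts and the wider window each gave 1 gene with more loops instead of 2. Tet2 changed sign with expected counts for LPS in p30 (-0.22), for LPS in p42 (-0.11) and for the difference of LPS effects (0.17, and 0.15 with the median ratio). The cause was not tested. Loops of under about 10 contacts lie at the minimum for listing, so absence from a list does not show absence of contact.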
